A study of Homo sapiens with 36 samples.

Results

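The ERBB receptors and the ligands that activate them were followed across the treatments of ZR-75-1 cells, a widely used luminal line from human breast cancer whose growth responds to estrogen. Members were all probes that the platform annotation assigns to EGFR, ERBB2, ERBB3, ERBB4, AREG, EREG, TGFA, HBEGF or ERRFI1. These were 16 of the 48803 probes on the array, and they covered 8 of the 9 symbols. EGFR had 4 probes, ERBB2 and ERBB3 had 3 each, TGFA had 2, and ERBB4, EREG, HBEGF and ERRFI1 had 1 each. The annotation used here gave no probe to AREG, the gene of amphiregulin, which is not analysed here. Of the 16 probes, 13 passed the filter of a detection p under 0.05 on at least 4 of 36 arrays. The 3 that did not were 2 EGFR probes designed to the transcripts NM_201284 and NM_201282, above background on 0 of 36 arrays, and 1 ERBB2 probe to NM_004448, above background on 1. All 8 genes with a probe kept at least 1, so 8 of the 12195 genes tested are members.

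The 36 RNA samples form 9 groups of 4, each hybridized to an Illumina bead array. Cells were held for 48 h without phenol red in medium with 10% hormone-stripped serum, which all groups share, and were then treated for 16 h. The groups are ethanol vehicle (VC), estradiol (E2, the main estrogen), dihydrotestosterone (DHT, an androgen), progesterone (PROG), the synthetic progestin medroxyprogesterone acetate (MPA), and E2 together with DHT, MPA or PROG. A further group of estradiol with progesterone is written E2s+PROG, and the labels do not say what the s stands for. The dose of E2, DHT and E2+DHT was 10 nM. Doses of MPA, of PROG and of the E2 that accompanied them are not in the labels, so steroids are set side by side without matched doses. Nothing in the labels says that replicates came from separate cultures, so p-values reflect only how far these samples spread, and that spread may be technical.

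ERBB receptors are tyrosine kinases of the cell surface that act as pairs. EGFR is activated by TGFA and AREG, EGFR and ERBB4 by HBEGF and EREG, and ERBB3 and ERBB4 by the neuregulins, while ERBB2 has no known ligand of its own and serves as the partner of the others. Active receptors signal through adaptors to RAS and ERK and through PI3 kinase to AKT. ERRFI1, also called MIG6, is an intracellular inhibitor that binds the kinase domain of EGFR and its relatives and is itself induced by growth factor signalling. In luminal breast cells, ERBB2 amplification defines a treatable tumour class, and ERBB ligands take part in the growth of mammary epithelium under ovarian hormones.

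Array medians of the unnormalized signal lay between 121.6 and 247.5, and 33.2% to 37.9% of probes were above background. The 12 arrays in columns 13 to 24 of the deposited table stood apart from the other 24 on the main axis of replicate differences, which held 49.4% of the residual variance. Vehicle replicate 1, outside those columns, scored -53.8 on that axis, beyond their range of -49.3 to -6.16. Of the 4 arrays per group these columns hold 3 for DHT, 2 each for E2, E2+PROG and E2+MPA, 1 each for VC, E2s+PROG and E2+DHT and 0 for MPA and PROG. Neither headers nor labels say what sets them apart, so member results that move with them are given with and without them. Other genes named below are given over all arrays only. All 10 luminal markers, among them ESR1, GATA3 and KRT8, were above background on 36 of 36 arrays, whereas basal KRT5 and KRT14, leukocyte PTPRC and CD3E, stromal COL1A2, COL3A1, PDGFRB and FAP and endothelial CDH5 were so on 0. Other markers of those lists were above background, ACTA2, COL1A1, CD14 and CD68 on 36 arrays, PECAM1 on 34, LYZ on 27, VWF on 26, CD79A on 13, DCN on 5, KDR on 2 and MME and LUM on 1. The hormone response genes PDZK1 and FKBP5 checked the labels. PDZK1 had a mean log2 signal of 11.31 with E2 against 5.89 with VC, and FKBP5 11.44 with DHT, 11.25 with MPA, 9.74 with PROG, 11.39 with E2+PROG and 10.20 with E2s+PROG, against 9.57 with VC.

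TGFA and ERRFI1 were the members that differed between treatments, as given below, and both were highest with E2 and progesterone together. Their upstream sequences are shown because the steroid receptors act through short elements in DNA. Each line gives the 250 bases before a gene start listed by RefSeq on GRCh38.p14, 5′ to 3′ on the gene's strand, here the minus strand for both genes. Capitals mark 5-letter partial sites of the estrogen receptor (GGTCA on either strand). They also mark 6-letter partial sites of the androgen and progesterone receptors (TGTTCT on either strand). Both are shorter than the full receptor elements. TGFA has 2 listed starts.
ERRFI1, chr1:8026310-8026559: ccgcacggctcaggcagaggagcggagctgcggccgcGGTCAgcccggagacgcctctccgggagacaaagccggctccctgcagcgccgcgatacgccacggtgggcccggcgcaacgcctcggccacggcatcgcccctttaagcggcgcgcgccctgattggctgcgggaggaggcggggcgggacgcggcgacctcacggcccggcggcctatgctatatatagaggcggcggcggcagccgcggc
TGFA outer start, chr2:70553827-70554076: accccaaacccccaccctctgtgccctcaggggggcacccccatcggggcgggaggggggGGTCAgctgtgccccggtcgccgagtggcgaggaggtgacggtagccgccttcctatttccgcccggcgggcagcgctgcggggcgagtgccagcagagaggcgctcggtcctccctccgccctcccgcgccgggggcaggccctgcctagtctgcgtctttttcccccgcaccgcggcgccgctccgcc
TGFA inner start, chr2:70553447-70553696: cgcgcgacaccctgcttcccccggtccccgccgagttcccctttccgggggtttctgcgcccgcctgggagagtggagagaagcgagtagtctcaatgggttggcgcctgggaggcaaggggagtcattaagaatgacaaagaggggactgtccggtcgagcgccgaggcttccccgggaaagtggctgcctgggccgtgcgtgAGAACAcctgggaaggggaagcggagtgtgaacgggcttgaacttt
The ERRFI1 window and the outer TGFA window each held 1 match to GGTCA, a short run of letters that 32.65% of 35116 windows of that length in RefSeq hold. The inner TGFA window held 1 match to TGTTCT on the opposite strand, which 12.39% of the windows hold. None of the 3 held the AP-1 element TGANTCA, the target of JUN and FOS proteins, present in 6.573% of windows. Members that passed in no comparison held partial sites too. The windows of HBEGF, EREG and ERBB4 each held 1 match to GGTCA, and that of ERBB4 also 1 to TGTTCT. Those of EGFR and ERBB2 held neither. The matches thus do not set TGFA and ERRFI1 apart from all other members. A match is a description of letters and not a binding site.

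Among the receptors, none passed the test in any of the 19 comparisons made, and the order of their group means had no gap. In each of EGFR, ERBB2, ERBB3 and ERBB4, the arrays of all 8 pairs of neighbouring groups in that order overlapped. Such overlap was not counted over all genes, so here and for TGFA and ERRFI1 below it is only a description. The tests were read from a limma model of all 36 arrays with Benjamini-Hochberg adjustment over all genes tested and a threshold of 0.05. Values are log2 of the normalized signal, and levels of different genes are not comparable because their probes differ.

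ERBB2, the receptor without a ligand, read 14.02, 13.67, 13.62 and 13.97 on the VC arrays. With E2 it read 13.50, 12.97, 13.43 and 13.21. All 4 E2 arrays lay below all 4 VC arrays. The difference of -0.55 ± 0.17 (SE), with a 95% interval of -0.90 to -0.19, did not pass over all genes (adjusted p = 0.111). It passed with the run of columns as a block in the model, at -0.60 (adjusted p = 0.0185), and among arrays outside the run, at -0.68 (adjusted p = 0.0481), but not with the block and without vehicle replicate 1, at -0.52 (adjusted p = 0.096). Group means of ERBB2 ran from 13.16 ± 0.17 (SD, n = 4) with E2+PROG to 13.82 ± 0.20 (SD, n = 4) with VC. E2+MPA, at 13.58 ± 0.26 (SD, n = 4), lay 0.41 above E2+PROG on the log2 scale with no overlap of arrays (adjusted p = 0.286). These values come from 1 ERBB2 probe. A second, to NM_001005862, was above background on 12 of 36 arrays and differed by 0.00 between E2 and VC.

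EGFR, the receptor of TGFA, read 8.56, 8.19, 7.91 and 7.78 with VC and 7.61, 7.31, 7.52 and 7.31 with MPA. The 4 MPA arrays were the lower ones, without overlap. The difference of -0.67 ± 0.19 (SE), with a 95% interval of -1.06 to -0.28, had an adjusted p of 0.0611. MPA arrays all lay outside columns 13 to 24, and among arrays outside them the value was -0.78 (adjusted p = 0.0128), with vehicle replicate 1 included. Over all arrays except vehicle replicate 1, inside and outside those columns, the difference was -0.52 (adjusted p = 0.395). The second EGFR probe, to NM_201283, had means of 6.31 ± 0.20 (SD, n = 4) with MPA and 6.74 ± 0.23 (SD, n = 4) with VC, a difference of -0.43 (adjusted p = 0.289). In the other groups EGFR lay between 7.67 ± 0.30 (SD, n = 4) with DHT and 7.85 ± 0.39 (SD, n = 4) with E2.

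ERBB3, the kinase-impaired partner that recruits PI3 kinase, varied least of the receptors, with group means from 12.12 ± 0.36 (SD, n = 4) with E2+MPA to 12.60 ± 0.12 (SD, n = 4) with DHT. On the brightest ERBB3 probe the means were lower in the presence of E2 than with the same steroid alone in each of the 3 pairs. The log2 difference was -0.38 for E2+DHT against DHT (adjusted p = 0.244), -0.37 for E2+MPA against MPA (adjusted p = 0.185) and -0.29 for E2+PROG against PROG (adjusted p = 0.267). Arrays did not overlap in the DHT and PROG pairs. None of these passed. The other ERBB3 probes did not share the direction in every pair. They differed by 0.495 and 0.06 for E2+PROG against PROG and by 0.17 and -0.21 for E2+MPA against MPA. For E2+DHT against DHT both were lower, at -0.65 and -0.31. The lowest ERBB3 array was E2+MPA replicate 3 at 11.59. Another ERBB3 probe, to NM_001005915, was 0.71 higher on the log2 scale inside the run of columns than outside it (adjusted p = 2.73e-05 over 16374 probes), and none of the 3 ERBB3 probes passed in a treatment comparison. ERBB4, a neuregulin receptor, was above background on 35 of 36 arrays, with group means from 6.56 ± 0.57 (SD, n = 4) with E2+MPA to 7.18 ± 0.19 (SD, n = 4) with DHT. The lowest ERBB4 value was 5.93 in E2+MPA replicate 4, the array not above background. VC arrays of ERBB4 alone spanned 6.36 to 7.70, more than the range of the 9 means.

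**Figure D1:**
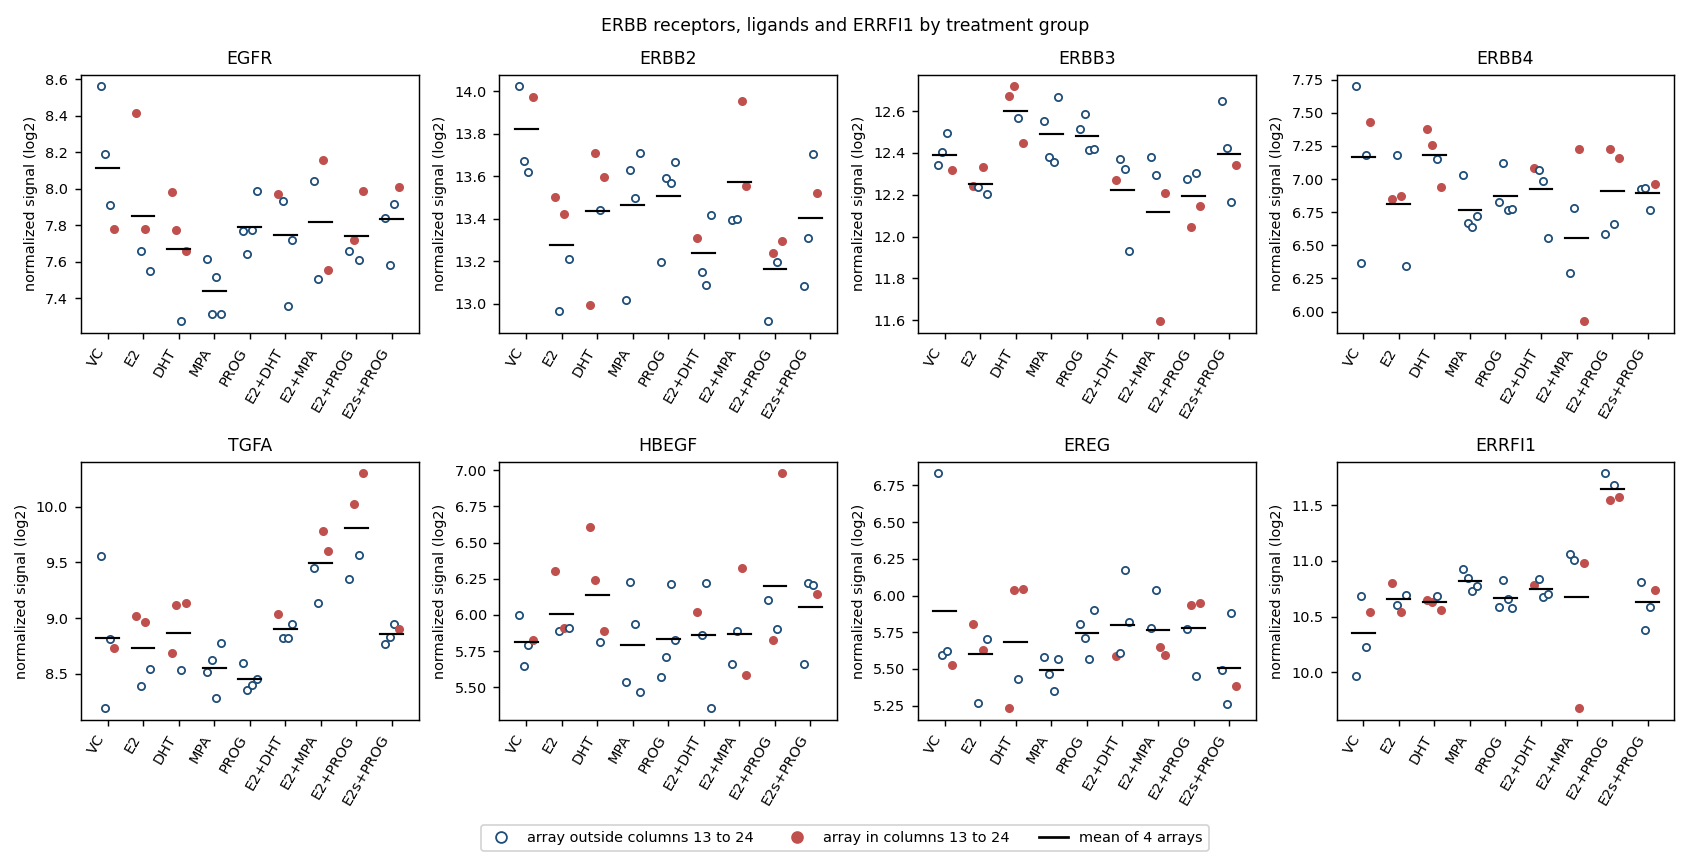
Normalized log2 signal (vertical axes) of the probe used for each of 8 genes on every array, by treatment group (horizontal axes), with a bar at the mean of 4 arrays and filled red points for arrays in columns 13 to 24 of the table. The means of TGFA are highest in E2+MPA and E2+PROG and that of ERRFI1 in E2+PROG. For the receptors, HBEGF and EREG the arrays of neighbouring groups in the order of means overlap.

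Of the ligands, TGFA was the member that rose. TGFA encodes transforming growth factor alpha, an EGFR ligand released from the cell surface. Its brighter probe read 9.02, 8.39, 8.97 and 8.54 with E2 and 8.59, 8.35, 8.39 and 8.45 with PROG. With E2+PROG it read 9.36, 10.02, 9.57 and 10.30. All 4 arrays of the combination lay above all 8 arrays of its parts. The means were 9.81 ± 0.43 (SD, n = 4) with E2+PROG, 8.73 ± 0.31 (SD, n = 4) with E2 and 8.45 ± 0.10 (SD, n = 4) with PROG. TGFA was thus 2.12-fold higher than with E2 alone (log2 difference 1.08 ± 0.21 SE, adjusted p = 0.00151) and 2.57-fold higher than with PROG alone (1.36 ± 0.21 SE, adjusted p = 3.19e-05). The difference from E2 did not pass in a fit of those groups alone (adjusted p = 0.0758) or outside the run of columns (1.0, adjusted p = 0.109), and inside the run it was 1.17 (adjusted p = 0.0349). All PROG arrays lay outside the run, where the brighter probe read lower. Outside it the mean was 9.46 with E2+PROG and 8.45 with PROG, closer together than over all arrays. Across the alternatives tried, the difference from PROG ran from 0.82 to 1.52. Each array read RNA from a whole culture, so more RNA per cell and a larger share of cells with that RNA cannot be told apart.

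TGFA was also higher when MPA was given with E2. The E2+MPA arrays read 9.45, 9.14, 9.78 and 9.61, and the MPA arrays 8.51, 8.62, 8.28 and 8.78. The combination lay above MPA and above E2 without overlap. TGFA was 1.93-fold higher than with MPA alone (0.95 ± 0.21 SE, adjusted p = 0.0119) and 1.70-fold higher than with E2 alone (0.77 ± 0.21 SE, adjusted p = 0.0495). The latter stood at the threshold and did not pass without E2 replicate 2 (adjusted p = 0.199), E2 replicate 4 (0.117), E2+MPA replicate 3 (0.207) or E2+MPA replicate 4 (0.167). The former did not pass without MPA replicate 3 (adjusted p = 0.07) or E2+MPA replicate 3 (0.0864). Outside the run of columns neither passed (0.83 against E2, adjusted p = 0.367, and 0.75 against MPA, adjusted p = 0.387), nor did they in a fit of the groups alone (adjusted p = 0.269 and 0.0578).

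No rise of TGFA was called when DHT was added to E2. It read 9.04, 8.82, 8.82 and 8.94 with E2+DHT, overlapping the E2 arrays, and the difference from E2 was 0.18 with a 95% interval of -0.25 to 0.61. None was called with a steroid alone either. The VC arrays spread widely, at 9.56, 8.19, 8.81 and 8.73. Against VC the brighter probe differed by -0.09 with E2, 0.04 with DHT, -0.27 with MPA and -0.37 with PROG, with adjusted p between 0.264 and 0.964. In the order of TGFA means, the arrays of 7 of 8 neighbouring pairs overlapped, and the gap lay between E2+DHT at 8.91 ± 0.10 (SD, n = 4) and E2+MPA at 9.49 ± 0.27 (SD, n = 4). That step itself, tested as E2+DHT against E2+MPA, was -0.59 ± 0.21 (SE) with an adjusted p of 0.424. VC was not separated from the higher groups. Its replicate 1, at 9.56, lay above E2+MPA replicates 1 and 2 at 9.45 and 9.14 and E2+PROG replicate 1 at 9.36. Neither E2+MPA nor E2+PROG was tested against VC.

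The E2s+PROG group did not share the rise of E2+PROG. Its TGFA arrays read 8.76, 8.83, 8.95 and 8.90, all below the E2+PROG arrays. TGFA was 1.94-fold lower than with E2+PROG (log2 difference -0.95 ± 0.21 SE, adjusted p = 0.00904), a call that did not pass without E2+PROG replicate 4 (-0.79, adjusted p = 0.085). It was also lost outside the run of columns (-0.62, adjusted p = 0.501), inside it (-1.26, adjusted p = 0.13) and in a fit of those groups alone (adjusted p = 0.064). Against E2 alone the difference was 0.13, with a 95% interval of -0.30 to 0.57. FKBP5 was lower in the same comparison, by a log2 of -1.19 (adjusted p = 2.22e-07).

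**Figure D2:**
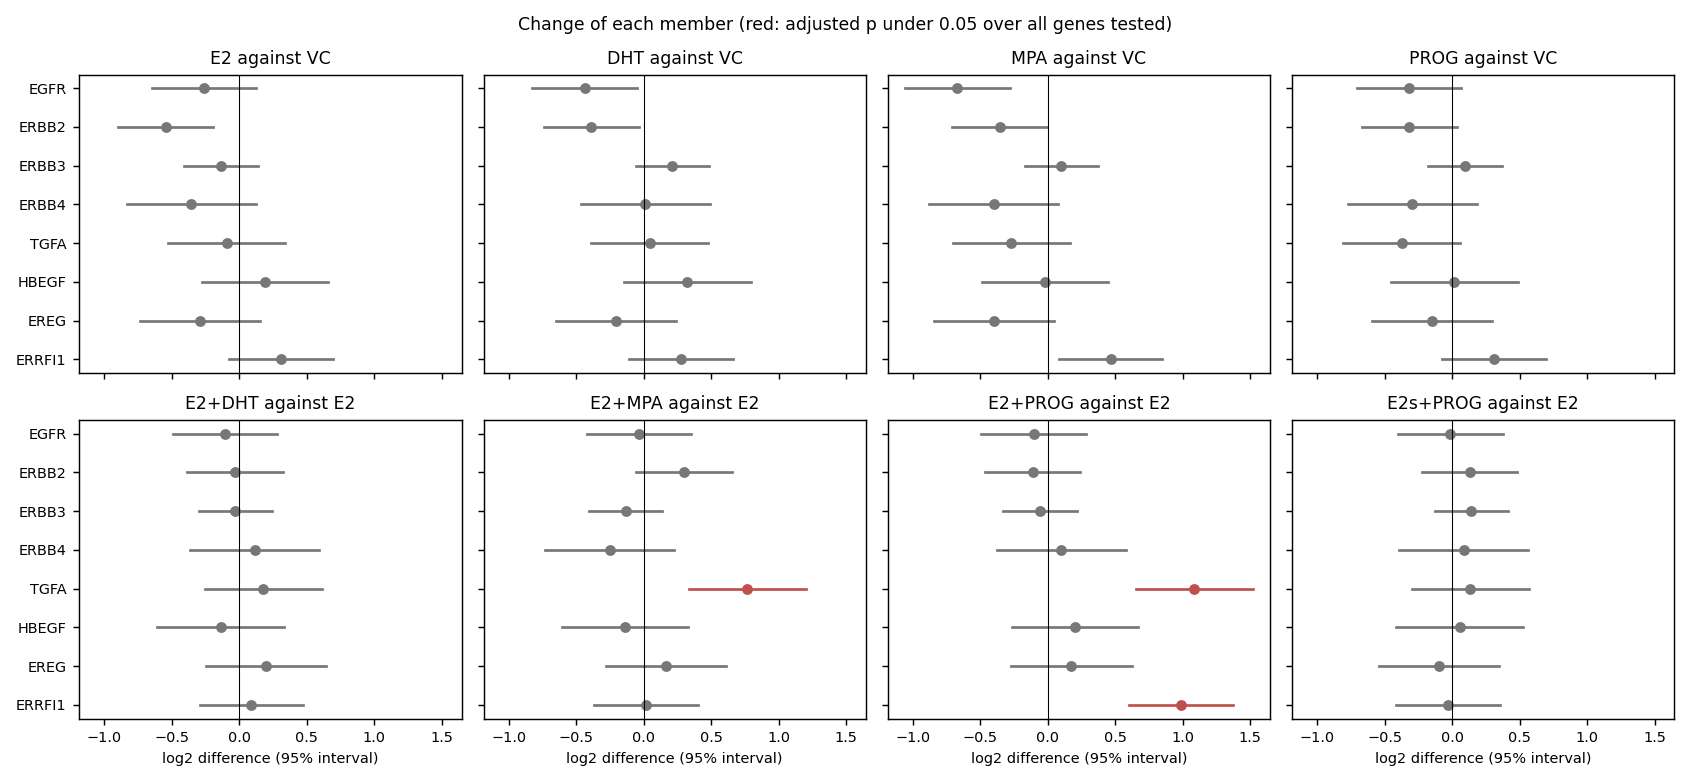
Log2 difference of each gene (points) with its 95% confidence interval from limma (lines) for the 4 steroids against VC (upper panels) and the 4 combinations against E2 (lower panels), with red for an adjusted p under 0.05. The red entries are TGFA with E2+MPA at 0.77, TGFA with E2+PROG at 1.08 and ERRFI1 with E2+PROG at 0.99.

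The second TGFA probe, designed to the same transcript NM_003236, passed in no comparison over all arrays, and it moved with the run of columns in the opposite direction. Inside the run it was lower by a log2 of -1.02 (adjusted p = 8.15e-05 over 16374 probes), whereas the brighter probe was higher inside by 0.34 (adjusted p = 0.00959). The run is no trait of TGFA, since 47.7% of the 16374 probes differed between inside and outside. On vehicle replicate 1 the second probe read 5.83, not above background, where the brighter one read 9.56. Outside the run the second probe read 9.95 and 9.66 with E2+PROG and 8.93 and 9.11 with E2. Inside it, the values were 8.41 and 8.69 with E2+PROG and 8.27 and 7.68 with E2. E2+PROG was thus above E2 in each part, as with the brighter probe, but the difference of 0.68 over all arrays did not pass (adjusted p = 0.84, or 0.441 with the run as a block). Outside the run the E2+PROG arrays also lay above the 4 PROG arrays at 8.86, 8.96, 8.81 and 9.0, with a difference of 0.27 over all arrays, 0.78 with the run as a block (adjusted p = 0.341) and 0.90 outside. For E2+MPA the second probe differed by 0.42 from E2 (adjusted p = 0.738) and by -0.04 from MPA (adjusted p = 0.976), or 0.47 with the run as a block (adjusted p = 0.664). Against VC the probes pointed opposite ways for E2. With the run as a block the second probe was 1.14 higher with E2 than with VC (adjusted p = 0.0262), the brighter probe -0.18 (adjusted p = 0.522). The TGFA calls above therefore rest on 1 of its 2 probes.

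**Figure D3:**
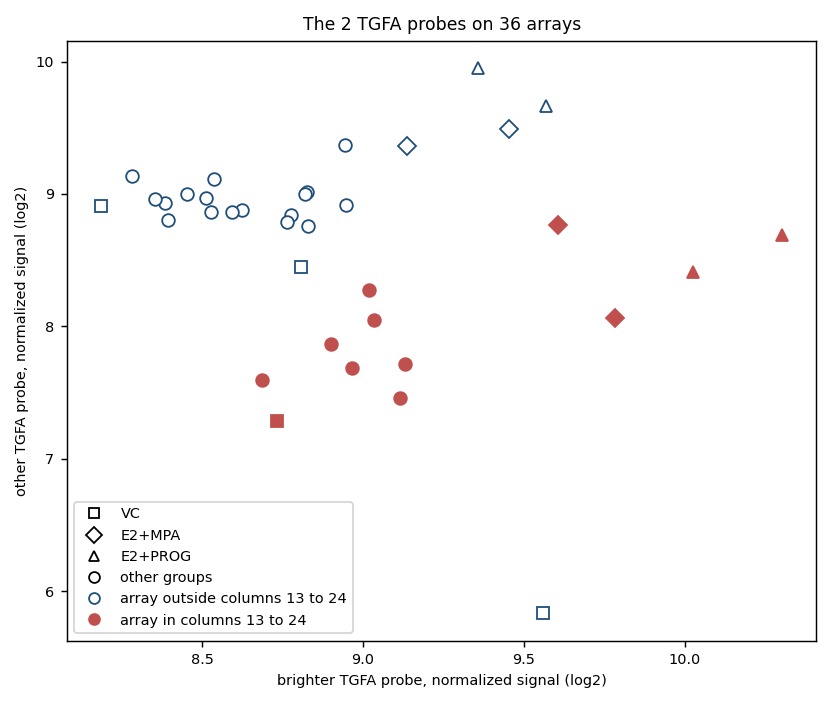
Normalized log2 signal of the brighter TGFA probe (horizontal axis) against the other TGFA probe (vertical axis) on 36 arrays, with triangles for E2+PROG, diamonds for E2+MPA, squares for VC, circles for other groups and filled red symbols for columns 13 to 24. Triangles lie at 9.36 or more on the horizontal axis, and the vehicle array at 5.83 on the vertical axis is replicate 1.

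HBEGF, heparin-binding EGF-like growth factor, and EREG, epiregulin, lay near background. HBEGF was above background on 14 of 36 arrays, from 0 of 4 with VC to 3 of 4 with E2+PROG and E2s+PROG. Its E2+PROG arrays read 6.10, 5.83, 5.90 and 6.98, and the mean of 6.20 ± 0.53 (SD, n = 4) rests on the last of them. HBEGF means ran from 5.79 to 6.20 and no comparison passed, with the lowest adjusted p at 0.424 for E2+PROG against PROG. EREG was above background on 4 of 36 arrays, 1 each with VC, PROG, E2+DHT and E2+MPA. Its means lay between 5.49 with MPA and 5.89 with VC, where replicate 1 stood at 6.83 and the others between 5.53 and 5.62. A change of EREG or of HBEGF was not measurable at this signal in most groups.

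ERRFI1, the inhibitor, was highest with E2+PROG and rose there against both parts of the combination. It read 11.79, 11.55, 11.68 and 11.57 with E2+PROG, 10.80, 10.60, 10.54 and 10.70 with E2 and 10.59, 10.83, 10.65 and 10.58 with PROG. The 4 arrays of the combination were close together, at 11.65 ± 0.11 (SD, n = 4), and lay above all other 32 arrays. ERRFI1 was 1.98-fold higher than with E2 (log2 difference 0.99 ± 0.19 SE, adjusted p = 0.00118) and 1.98-fold higher than with PROG (0.98 ± 0.19 SE, adjusted p = 0.000645). The 95% interval of the former was 0.60 to 1.37. Outside the run the difference from E2 was 1.08 (adjusted p = 0.00239) and inside it 0.89 (adjusted p = 0.522).

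No rise of ERRFI1 was called with E2+MPA. The E2+MPA arrays read 11.06, 11.01, 9.67 and 10.98. Replicate 3 was the lowest of all 36 arrays and the other 3 lay above every E2 array. The difference from E2 was 0.02, with a 95% interval of -0.37 to 0.40, and 0.35 without replicate 3 (adjusted p = 0.261). E2+MPA was 1.96-fold lower than E2+PROG (-0.97 ± 0.19 SE, adjusted p = 0.00156), and without replicate 3 the difference was -0.63 (adjusted p = 0.00336). That call was lost in a fit of those groups alone (adjusted p = 0.345), outside the run (0.128) and inside it (0.0607). For TGFA the same pair differed by -0.32, with a 95% interval of -0.75 to 0.12. MPA alone had ERRFI1 at 10.93, 10.85, 10.73 and 10.77, above every VC array at 9.97, 10.69, 10.23 and 10.54, but the difference of 0.46 had an adjusted p of 0.146, and among arrays outside the run it was 0.53 (adjusted p = 0.0388). The arrays outside the run included vehicle replicate 1, the lowest VC array at 9.97. With E2s+PROG the gene read 10.81, 10.38, 10.59 and 10.74, 2.03-fold lower than with E2+PROG (-1.02 ± 0.19 SE, adjusted p = 0.000982), and differed from E2 by -0.03 with a 95% interval of -0.42 to 0.35. The former did not pass on the authors' processed values (adjusted p = 0.0515). In the order of means the arrays of 7 of 8 neighbouring pairs overlapped, and the gap lay between MPA at 10.82 ± 0.09 (SD, n = 4) and E2+PROG.

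Counted over all comparisons, 10 of the 152 pairs of gene and comparison passed, all of them TGFA or ERRFI1. The share of all tested genes that passed gives the scale. Of the 8 members, 0 passed for E2 against VC, where 1.86% of all genes did, with 1 member at an unadjusted p under 0.05. Also 0 passed for DHT against VC (2.4% of genes, 2 members unadjusted), MPA against VC (1.88%, 3 members) and PROG against VC (0.0574%, 0 members). Of the additions to E2, DHT gave 0 of 8 (1.08% of genes, 0 unadjusted), MPA 1 of 8 (2.14%), PROG 2 of 8 (2.51%) and E2s+PROG 0 of 8 (0.0902%, 0 unadjusted). When E2 was added, 0 of 8 passed with DHT (1.33%, 1 unadjusted), 1 of 8 with MPA (1.35%) and 2 of 8 with PROG (4.81%). E2s+PROG against E2+PROG gave 2 of 8, both lower (1.74%).

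Between steroids, 0 of 8 members passed for DHT against MPA (0.312% of genes, 0 unadjusted) and MPA against PROG (0.459%, 0 unadjusted), and in the presence of E2 for DHT against MPA (0.525%, 1 unadjusted). E2+MPA against E2+PROG gave 1 of 8, ERRFI1 (2.43%). These comparisons share control arrays, and their counts are not independent. The median log2 difference of the 8 members was 0.14 for E2+PROG against E2, where the median of all genes was -0.03.

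An interaction asks whether the change with both steroids departs from the sum of their changes alone on the log2 scale. For PROG and MPA the labels give neither their doses nor that of the E2 beside them. A difference in dose between single and combined treatments thus cannot be told apart from such a departure. For E2 and PROG, TGFA departed by 1.46 ± 0.30 (SE), with a 95% interval of 0.85 to 2.07 and an adjusted p of 0.00504, in a test that 1.54% of all genes passed. It was 1.21 without vehicle replicate 1 (adjusted p = 0.0154) and 1.40 outside the run of columns. The second TGFA probe gave -0.61 (adjusted p = 0.572), the opposite sign, and -0.35 with the run as a block. ERRFI1 departed by 0.68 with an adjusted p of 0.194. For E2 and MPA, TGFA departed by 1.04 (adjusted p = 0.119), and 0 of 8 members passed where 0.0656% of genes did, with 3 at an unadjusted p under 0.05. For E2 and DHT 0 of 8 passed, with 0 unadjusted, where 0.0082% of genes did.

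Around the members, 78 of 97 listed genes of the pathway and of the ERBB2 chromosome band were tested. None of the 5 other ligands, 5 genes of ligand release or 5 genes from RAS to ERK passed in any comparison. For E2+PROG against E2, 2 of the 78 rose and 0 fell, or 2.56%, beside 2.51% of all genes. JUN, an immediate early transcription factor induced by growth factor signalling, read 9.65, 10.29, 10.14 and 10.15 with E2+PROG and 9.16, 9.33, 9.13 and 8.89 with E2. Like ERRFI1 it lay higher on all 4 arrays of the combination, by 1.91-fold (0.93 ± 0.19 SE, adjusted p = 0.00308). JUN was also lower with E2+MPA than with E2+PROG, by a log2 of -1.05 (adjusted p = 0.000778), and E2+MPA replicate 3 had the lowest JUN value, 8.23, as it had for ERRFI1. The other 14 of 15 immediate early and ERK-responsive genes tested, EGR1 among them, did not pass for E2+PROG against E2.

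Of the 19 feedback genes, SPRY1, a Sprouty inhibitor of receptor tyrosine kinase signalling, fell with E2, from 10.91 ± 0.12 (SD, n = 4) to 10.46 ± 0.13 (SD, n = 4), with no overlap of arrays (adjusted p = 0.0253). It was also lower in E2+DHT than in DHT (-0.46, adjusted p = 0.0251) and in E2+PROG than in PROG (-0.47, adjusted p = 0.00718). With MPA there was no such fall. SPRY1 read 10.61 ± 0.11 (SD, n = 4) with E2+MPA and 10.61 ± 0.15 (SD, n = 4) with MPA. SPRY4 of the same family was above background on 0 of 4 PROG arrays and 4 of 4 E2+PROG arrays, at least 1.84-fold higher in the latter (adjusted p = 0.000347). The bound takes each dim array at its lowest signal above background. In E2 against VC, 4 of the 78 genes passed, or 5.13%, 2 in each direction, beside 1.86% of all genes. EGR1, an immediate early factor, was 1.78-fold higher (adjusted p = 0.0239) and the phospholipase PLCG1 1.68-fold higher (adjusted p = 0.019). The exchange factor SOS1 fell with SPRY1, by a log2 of -1.0 (adjusted p = 0.0336), with overlapping arrays, and is named here after its values were seen.

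The largest change in these lists was PNMT, the enzyme that makes adrenaline from noradrenaline, whose gene lies on the chromosome band of ERBB2. PNMT was above background on 0 of 4 arrays with VC, E2 or DHT, on 1 of 4 with E2+DHT, and on 4 of 4 with MPA, PROG, E2+MPA, E2+PROG and E2s+PROG. It was at least 2.53-fold higher with MPA than with VC (adjusted p = 4.46e-08), at least 3.44-fold higher with E2+MPA and at least 4.25-fold higher with E2+PROG than with E2 (adjusted p = 5.61e-10 and 9.91e-12). E2s+PROG had it at least 1.62-fold higher than E2 (adjusted p = 0.0006). ERBB2 itself did not pass in these comparisons, and 7 of the 8 band neighbours tested did not pass for E2+PROG against E2. For E2+PROG against PROG, 5 of the 78 rose and 1 fell, or 7.69%, beside 4.81% of all genes. These were PNMT, JUN, SPRY4, the ephrin receptor EPHA4 and the kinase AKT2, with SPRY1 the lower. AKT2 read 7.31 ± 0.10 (SD, n = 4) with E2+PROG, 6.34 ± 0.36 (SD, n = 4) with PROG and 7.24 ± 0.43 (SD, n = 4) with VC. In the interaction of E2 and PROG 4 of the 78 passed, or 5.13%, beside 1.54% of all genes. These were PNMT, JUN, AKT2 and JUNB, a JUN relative (1.06, adjusted p = 0.0401). JUNB means were 9.51 with E2+PROG and 9.51 with VC, and 8.94 with E2 and 9.01 with PROG.

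DHT against VC had 0 higher and 2 lower of 78, or 2.56%, beside 2.4% of all genes. MTOR, the growth kinase, was lower by a log2 of -0.60 (adjusted p = 0.0313). The phosphatase PTPRK was lower by -0.74 (adjusted p = 0.0287), but its arrays overlapped and it is named after its values were seen. For PTPRK the VC array inside the run of columns read 10.85, and the DHT arrays inside it 10.71, 10.85 and 10.58. For MTOR these arrays read 10.54 with VC and 10.13, 10.22 and 10.14 with DHT. MPA against VC had PNMT higher and PHLDA1, an early response gene, lower by a log2 of -1.16 (adjusted p = 0.023), with PHLDA1 above background on 2 of 4 MPA arrays. That was 2.56% of the 78, beside 1.88% of all genes. DUSP5, an ERK phosphatase, was 1.42-fold higher with E2+MPA than with E2+PROG (adjusted p = 0.0403). PROG against VC and E2+DHT against E2 had 0 of 78 in each direction, beside 0.0574% and 1.08% of all genes.

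**Figure D4:**
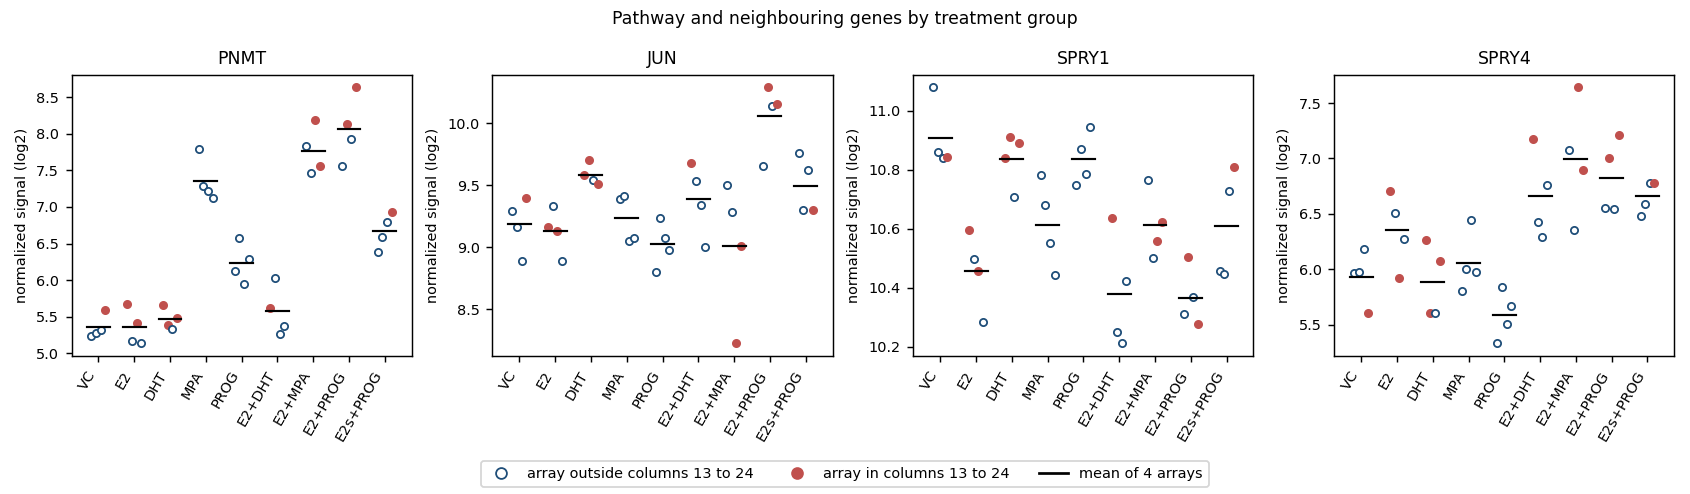
Normalized log2 signal (vertical axes) of PNMT, JUN, SPRY1 and SPRY4 on every array by treatment group (horizontal axes), with a bar at the mean of 4 arrays and filled red points for columns 13 to 24. PNMT is high with MPA and in the combinations with progestins, JUN is highest in E2+PROG, and SPRY1 is lower with E2 than with VC.

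Other cell types were checked beside these results. The summed signal of 4 endothelial markers lay between 270 and 303 with E2+PROG and between 217 and 265 with PROG, and between 198 and 304 with E2. Its highest values were with DHT, at 454 to 677 (median 507), and with E2+DHT, at 431 to 569 (median 519). VWF of this list passed as higher in DHT against VC and against MPA. It also passed as higher in E2+DHT against E2 and against E2+MPA, and in E2+PROG against PROG. The summed signal of the 6 leukocyte markers had its highest median with E2+PROG, at 1888 with a range of 1486 to 2354, against medians of 1550 with E2 (1157 to 1822), 1625 with PROG (1587 to 1783) and 1285 with VC (1076 to 1338). The ranges of E2+PROG, E2 and PROG overlapped. CDH5, PTPRC and CD3E were above background on 0 arrays, and the part of these lists in the results was not tested.

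Genes whose 9 group means followed those of TGFA most closely, among 1454 genes with means spanning at least 1 on the log2 scale, were SEPTIN5, FADS2 and TRIM58, with Pearson correlations of 0.972, 0.968 and 0.952. For ERRFI1 they were AKR1C2, MT1G and LCE3D, with 0.968, 0.96 and 0.951. TGFA and ERRFI1 correlated with each other at 0.676. These are descriptions over 9 means of the same arrays.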

How the data were processed

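Per the labels' protocols, bead arrays were hybridized with biotinylated cRNA. Unnormalized probe intensity and a detection p-value per probe and array were deposited by the authors, per the file headers, beside processed intensity. In the files each processed column was a straight line of the unnormalized one (slopes 0.324 to 1.573, largest residual 0.128, medians 5.4 to 30.9), used as an alternative. None of the columns (0) belonged to other samples.

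With limma 3.58.1 (R 4.3.3, and the data.table package in version 1.17.8), neqc took background from the detection p-values (offset 16), quantile-normalized and took log2. Probes with a detection p under 0.05 on at least 4 arrays were kept, 21116 of 48803. Of 27578 probes with 1 symbol in GEO's platform annotation, 27541 matched the reference gene table. The 13 with several symbols and 21212 with none were not named. Per gene the probe with the highest mean was used. Groups came from the labels. The model held a mean for each group over all arrays (27 residual degrees of freedom), with 19 contrasts, of which 3 were interactions, and Benjamini-Hochberg adjustment. Probe-level adjusted p-values run over the 16374 kept probes with 1 symbol. The fit was tested on simulated data. The number of arrays limits the precision.

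Members and lists were chosen with earlier results of these data known. The rule for named genes took every member, and of each pathway list up to 3 genes past the threshold per comparison without overlapping arrays. For TGFA and ERRFI1 it took the 3 genes most like them. Alternatives were background, offset, filter, probe choice, groups fitted, replicate number or column run as a block, arrays inside or outside the run, and each array left out. The block without vehicle replicate 1, and every probe with the block, were added after seeing the data.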

Additional observations from a re-analysis of the deposited data

Results flagged for a closer look

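Of 72 sets of 4 arrays of a member gene in a treatment, 4 had an array whose gap to the nearest other exceeded 0.829 of the range, and chance gives about 1 in 20. ERRFI1 read 9.67 in E2+MPA replicate 3 and 10.98 or more on the other 3 arrays. EREG read 6.83 in VC replicate 1, where the others lay under 5.63. HBEGF read 6.31 in E2 replicate 1 and 5.66 in E2s+PROG replicate 1, both near background. The effect of PROG on TGFA differed by 1.46 on the log2 scale between cells with and without E2 (limma interaction, adjusted p = 0.00504), and the second TGFA probe did not show that difference, at -0.61. Doses of PROG, and of the E2 given with it, are not in the labels and may differ between the groups.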

How the results depend on the processing

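Counts of members passed were 2 for E2+PROG against E2, E2+PROG against PROG and E2s+PROG against E2+PROG, 1 for E2+MPA against E2, against MPA and against E2+PROG and for the interaction of E2 and PROG, and 0 elsewhere. Fitting only the groups compared left 0 for E2+MPA against E2, against MPA and against E2+PROG and for the interaction, and 1 for E2+PROG against E2 and for E2s+PROG against E2+PROG. Averaging a gene's probes left 0 for E2+MPA against E2 and against MPA and for the interaction of E2 and PROG (0.42, adjusted p = 0.295). Testing every probe, or without a filter, left 0 for E2+MPA against E2, and the authors' processed values left 1 for E2s+PROG against E2+PROG.

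With the run of columns as a block, 1 member passed for E2 against VC (ERBB2), while the share of all genes passed there went from 1.86% to 12.4%, and from 2.14% to 4.29% for E2+MPA against E2. Outside the run, E2 against VC gave 1, MPA against VC 2 (EGFR and ERRFI1), E2+MPA against E2, MPA and E2+PROG 0, and E2+PROG against E2 and E2s+PROG against E2+PROG 1. Vehicle replicate 1 was among the arrays outside the run. Inside the run, E2+PROG against E2 gave 1, and E2+MPA against E2, E2s+PROG against E2+PROG and E2+MPA against E2+PROG 0. With every probe and the block, chosen after seeing the data, E2 against VC gave 2 and the interaction of E2 and MPA 1, and TGFA with E2 reversed to 1.14 (adjusted p = 0.0262), on its second probe.

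Leaving out 1 array gave 0 to 1 for E2+MPA against E2 and against MPA, 1 to 2 for E2s+PROG against E2+PROG, 0 to 2 for MPA against VC (EGFR and ERBB4 without VC replicate 2, EGFR without VC replicate 4) and 0 to 1 for the interaction of E2 and MPA. TGFA and ERRFI1 in E2+PROG against PROG passed in all 21 alternatives tried. For TGFA these do not stand for its second probe, which passed in no comparison over all arrays. In E2+PROG against E2, TGFA passed in 20 of 22 and ERRFI1 in 21 of 22. Replicate numbers were not used to pair the samples in the main model. In no comparison did all 4 same-numbered pairs correlate above 0.1, which does not exclude pairing. All 4 were positive for MPA against PROG (0.07 to 0.27) and for E2+PROG against PROG (0.03 to 0.25). For E2+PROG against E2 all 4 were negative (-0.64 to -0.55). With the replicate block MPA against VC gave 1, EGFR (adjusted p = 0.0402), and the other counts were the same. The cause of these changes was not tested.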
